A study of Mus musculus with 4 samples.

Results

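The 31 genes described here encode the proteins that copy DNA in S phase, supply its building blocks, package the copied strands and control entry into S phase. They were chosen by name, and all 31 were found among the 23235 genes of the deposited tables. Bulk RNA had been sequenced from acute myeloid leukaemia of genotype NRASG12V/Mll-AF9, an oncogenic RAS protein together with a fusion of the MLL and AF9 genes. The leukaemia cells had been injected into the tail vein of SCID/Beige mice, a strain that lacks mature T and B cells but makes its own red cells and myeloid cells, and had grown for 20 days to white blood cell counts above 100000 per microlitre. Doxycycline, which switches NRASG12V off in this model, was injected into the abdomen at time 0 and then given in the drinking water. The 4 groups were NRASG12V off for 48 h, off for 72 h, off for 96 h, and NRASG12V on, and each held 1 library. All 4 carried the same genotype, and no library with doxycycline and NRASG12V still on was among the samples analysed here, so drug, elapsed time and switch cannot be told apart. No source used here states the promoter of the transgene, the tissue harvested or how many mice a library came from. The on library was read from a column headed 0 h, but its sample label gives no time.

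With 1 library per group, no difference below has a replicate check or a p-value. Values are FPKM, a level per transcript length and per library size. A change is log2((off FPKM + 1)/(on FPKM + 1)), taken within the table of 1 time, and a gene was called higher or lower where it reached 1 FPKM in either library and differed at least 2-fold on that scale. Levels of different times are shown on the scale of the 48 h table, reached through the on library that every table holds. The total depth of a library is unknown. Mouse Nras stood at 17.1, 18.0 and 19.5 FPKM in the 48 h, 72 h and 96 h off libraries, against 24.5 FPKM in the on library, and reads of the transgene need not all be assigned to it. In bulk RNA, fewer cells of a type and less RNA per cell cannot be told apart.

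Origins of replication are licensed in G1, when the loaders Cdc6 and Cdt1 place the ring of Mcm2 to Mcm7 on DNA. At the start of S phase cyclin E with Cdk2 and other kinases activate that ring, which becomes the replicative helicase once Cdc45 and the GINS complex join it. DNA polymerase alpha with primase then starts the strands, and polymerases delta and epsilon, tethered by the clamp Pcna, extend them. E2F factors, held back by the retinoblastoma protein family, switch on many genes of this machinery at the G1/S boundary.

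Promoter windows are shown for E2F-like letters, which were not read when the genes were chosen by name. Since many genes of this machinery are switched on by E2F factors, a high share of matches could be foreseen from the choice of genes. It is not a result of the RNA values. RefSeq windows of build GRCm38.p6, from 250 bases before to 50 bases after the gene start, were matched by symbol for 25 of the 31 genes; Mcm4, Gins1, Gins2, Tipin, Pole and Ccne2 had none. Both strands were searched for TTTCCCGC, TTTGGCGC, TTTCGCGC and TTTGCCGC. TTTGCCGC occurred in no window of the 31 genes, and at least 1 of the other motifs was present for 11 of the 25 genes (44.0%), against 4.72% of the 8538 genes expressed here that had a window and 2.60% of all 27025 genes with a window. The 11 were Mcm3, Mcm5, Mcm6, Mcm7, Cdc6, Cdt1, Lig1, Pold1, Pola1, Uhrf1 and Msh6. The stretches below are those of the 4 matched genes with the largest mean change, followed by Mcm6 and Mcm5, added because 2 motifs overlap there on opposite strands. Capitals mark the matches, and each line runs 5′ to 3′ along the gene's own strand. The Msh6 and Lig1 matches lie just after the gene start and are shown with 30 bases in all.

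Cdc6, chr11:98907963-98908070, plus strand: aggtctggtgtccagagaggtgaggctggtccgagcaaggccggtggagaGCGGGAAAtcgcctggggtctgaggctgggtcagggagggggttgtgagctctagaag
Pola1, chrX:93632236-93632343, minus strand: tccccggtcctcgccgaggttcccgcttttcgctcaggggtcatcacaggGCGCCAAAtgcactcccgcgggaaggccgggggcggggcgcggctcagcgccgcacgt
Msh6, chr17:87975054-87975083, plus strand: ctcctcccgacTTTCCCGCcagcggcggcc
Lig1, chr7:13278841-13278870, plus strand: cgccaaagtgcGCGCGAAAtctgtgtggcg
Mcm6, chr1:128359758-128359865, minus strand: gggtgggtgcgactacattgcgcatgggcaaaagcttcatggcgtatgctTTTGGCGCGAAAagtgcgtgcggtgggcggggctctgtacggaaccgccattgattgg
Mcm5, chr8:75109306-75109413, plus strand: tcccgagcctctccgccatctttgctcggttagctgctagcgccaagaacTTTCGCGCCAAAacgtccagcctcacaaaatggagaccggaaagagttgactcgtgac

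A matched window did not go with a larger change. At 96 h the 11 genes with a match had a median change of 0.66 (from 0.26 to 1.57), and the 14 without one had 0.70 (from 0.00053 to 1.69). Ccne1, which had the largest change of all 31, held no match in its window.

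The genes stood close to the on level at 48 h off and mostly above it at 96 h. All 31 reached 1 FPKM in every library, the lowest value being 8.90 FPKM for Pole at 48 h. Their median change was 0.03 at 48 h, 0.37 at 72 h and 0.66 at 96 h, beside medians of -0.14, -0.07 and -0.06 over the 11739, 11746 and 11729 genes tested at these times. At 48 h 17 of the 31 lay above the on library and 14 below it, and at 96 h 30 lay above and Gins2 alone below. The summed level of the 31 genes was 2073, 2568 and 3189 FPKM in the 48 h, 72 h and 96 h off libraries, against 2001 FPKM in the on library.

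Few of these differences were large. At 48 h 1 of the 31 genes was called higher (Ccne1), where 5.0% of all genes tested were. At 72 h 3 were called (Ccne1, Ccne2 and Cdc6), where 6.61% of all genes were, and at 96 h 4 were called (with Slbp), where 7.39% were. None of the 31 was called lower at 48 h, 72 h or 96 h, where 4.85%, 5.76% and 8.16% of all genes were. In the authors' deposited table that sets a combined off value against the on library, 3 of the 31 were at least 2-fold higher and 0 lower, beside 6.86% and 5.25% of all genes, and the median change was 0.42. Over genes with at least 5 FPKM off and on, the median change was -0.20, -0.14 and -0.10 at 48 h, 72 h and 96 h. Relative to that shift the medians of the 31 genes were 0.23, 0.52 and 0.77. With that median set to 0, 2, 3 and 7 of the 31 were called higher. Over all genes the same step turned calls of 587 higher and 569 lower at 48 h into 899 and 335, 776 and 676 at 72 h into 1007 and 455, and 867 and 957 at 96 h into 1048 and 757.

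**Figure D1:**
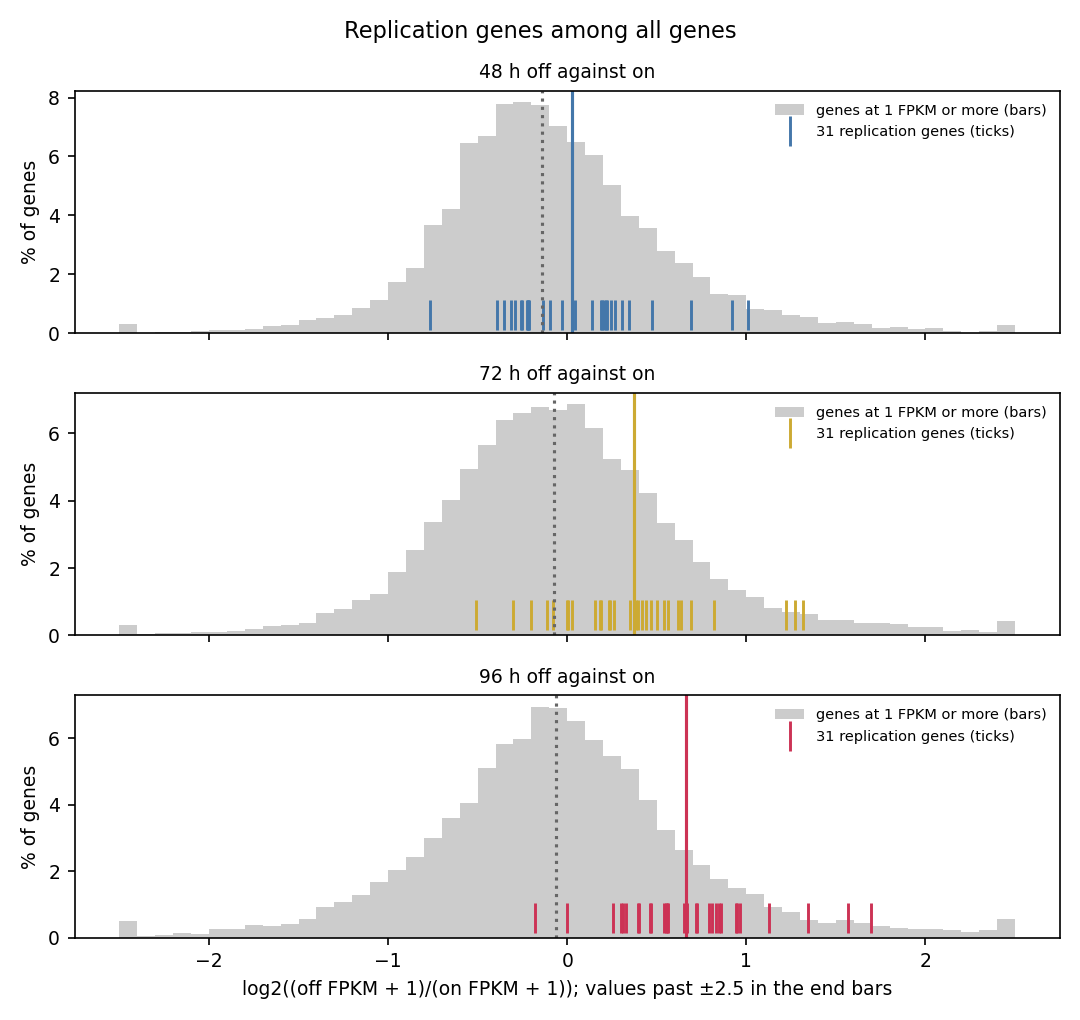
Change of the 31 replication genes (coloured ticks) among all genes tested (grey bars, % of genes) at 48 h, 72 h and 96 h off, on the log2((off FPKM + 1)/(on FPKM + 1)) axis. The solid line is the median of the 31 genes (0.03, 0.37 and 0.66) and the dotted line that of all genes tested (-0.14, -0.07 and -0.06).

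The cyclin E genes of the G1/S step were among the largest changes of the 31 genes. Ccne1, a cyclin E that activates Cdk2 at S phase entry, stood at 54.2, 67.3 and 87.8 FPKM in the 48 h, 72 h and 96 h off libraries, against 26.4 FPKM in the on library. Every off library lay at least 2-fold above the on library, with changes of 1.01, 1.32 and 1.69, the largest of the 31 genes at each time. Ccne2, the second cyclin E gene, stood at 16.4, 24.2 and 26.5 FPKM off, against 9.79 FPKM on. Its changes were 0.69, 1.22 and 1.34, so the 48 h library fell short of 2-fold. The transcription factor E2f1 differed less, at 23.4, 28.7 and 37.1 FPKM off against 25.1 FPKM on, with changes of -0.10, 0.18 and 0.54. It lay below the on level at 48 h as deposited and above it (0.11) once the median change of genes with at least 5 FPKM off and on was set to 0. The group's median of 0.69, 1.22 and 1.34 was the highest of the 6 role groups at each time, but it rests on 3 genes, of which the cyclins set it. The 17 G1/S control genes of the wider list described below had medians of -0.08, 0.18 and 0.29. At 96 h that was the lowest median of the 6 wider role groups.

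Among the licensing genes, the loader Cdc6 stood apart from the helicase subunits it loads. Cdc6 was at 28.0, 36.1 and 44.5 FPKM in the 48 h, 72 h and 96 h off libraries, against 14.3 FPKM in the on library, and its changes of 0.92, 1.27 and 1.57 ranked second of the 31 at each time. Cdt1, the other loader, was at 41.0, 49.4 and 73.3 FPKM off, against 41.8 FPKM on. It matched the on level at 48 h (-0.03) and reached a change of 0.79 at 96 h.

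The 6 subunits of the Mcm2 to Mcm7 ring did not move as one. Mcm2 stood at 91.5, 111 and 147 FPKM in the 48 h, 72 h and 96 h off libraries, against 76.0 FPKM in the on library, and Mcm4 at 70.3, 85.6 and 110 FPKM, against 60.1 FPKM. Both lay above the on library at each time, with changes of 0.26, 0.54 and 0.94 for Mcm2 and 0.22, 0.50 and 0.86 for Mcm4. Mcm3 stood at 83.1, 103 and 131 FPKM off, against 109 FPKM on, and was below the on library at 48 h and, except with the median change set to 0 or globin genes left out of the total, at 72 h. The other 3 subunits were also below the on level at 48 h and above it at 96 h. Mcm5 stood at 96.1, 112.6 and 139 FPKM off, against 112.1 FPKM on (changes of -0.22, 0.01 and 0.31), and Mcm6 at 96.35, 126 and 163 FPKM off, against 123.5 FPKM on (-0.36, 0.03 and 0.40). Mcm7 stood at 126.6, 164.8 and 219 FPKM off, against 139 FPKM on (-0.14, 0.24 and 0.65), although it lay above the on level at 48 h (0.07) with the median change set to 0. Ratios between subunits within a library do not depend on library scaling. The FPKM ratio of Mcm2 to Mcm3 was 1.10, 1.08 and 1.13 in the 48 h, 72 h and 96 h off libraries, against 0.696 in the on library. That of Mcm4 to Mcm6 was 0.729, 0.679 and 0.671 off, against 0.486 on. The most and least abundant subunits per length were Mcm7 and Mcm4 in all 4 libraries, and they differed by 1.80, 1.93 and 1.998 times off, against 2.32 times on.

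The partners that turn the ring into an active helicase had the lowest group median of the 6 roles at each time, although single genes of other roles, such as Mcm3 and Mcm6 at 48 h, lay below some of them. Gins2, a GINS subunit, stood at 19.4, 23.4 and 29.7 FPKM in the 48 h, 72 h and 96 h off libraries, against 33.8 FPKM in the on library. It was below the on level in every off library, with changes of -0.77, -0.51 and -0.18, and at 96 h the difference was nil (0.00) when globin genes were left out of the total. Cdc45 stood at 30.8, 30.5 and 37.9 FPKM off, against 37.9 FPKM on. On the deposited scale it was the single member of the 31 with no step up between 48 h and 72 h. Gins1 stood at 25.6, 32.1 and 40.7 FPKM off, against 32.1 FPKM on. The fork protection factor Tipin, partner of Timeless, was at 53.5, 71.5 and 89.2 FPKM off, against 64.2 FPKM on. All 4 genes lay below the on library at 48 h, and the group's median was -0.30, -0.15 and 0.17, although with globin genes left out of the total the 72 h median was 0.07. This low position rests on 4 genes. The 12 genes of the same role in the wider list described below had medians of -0.11, 0.33 and 0.42. Of these 12, 4 lay above the on library at 48 h, 9 at 72 h and 12 at 96 h.

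**Figure D2:**
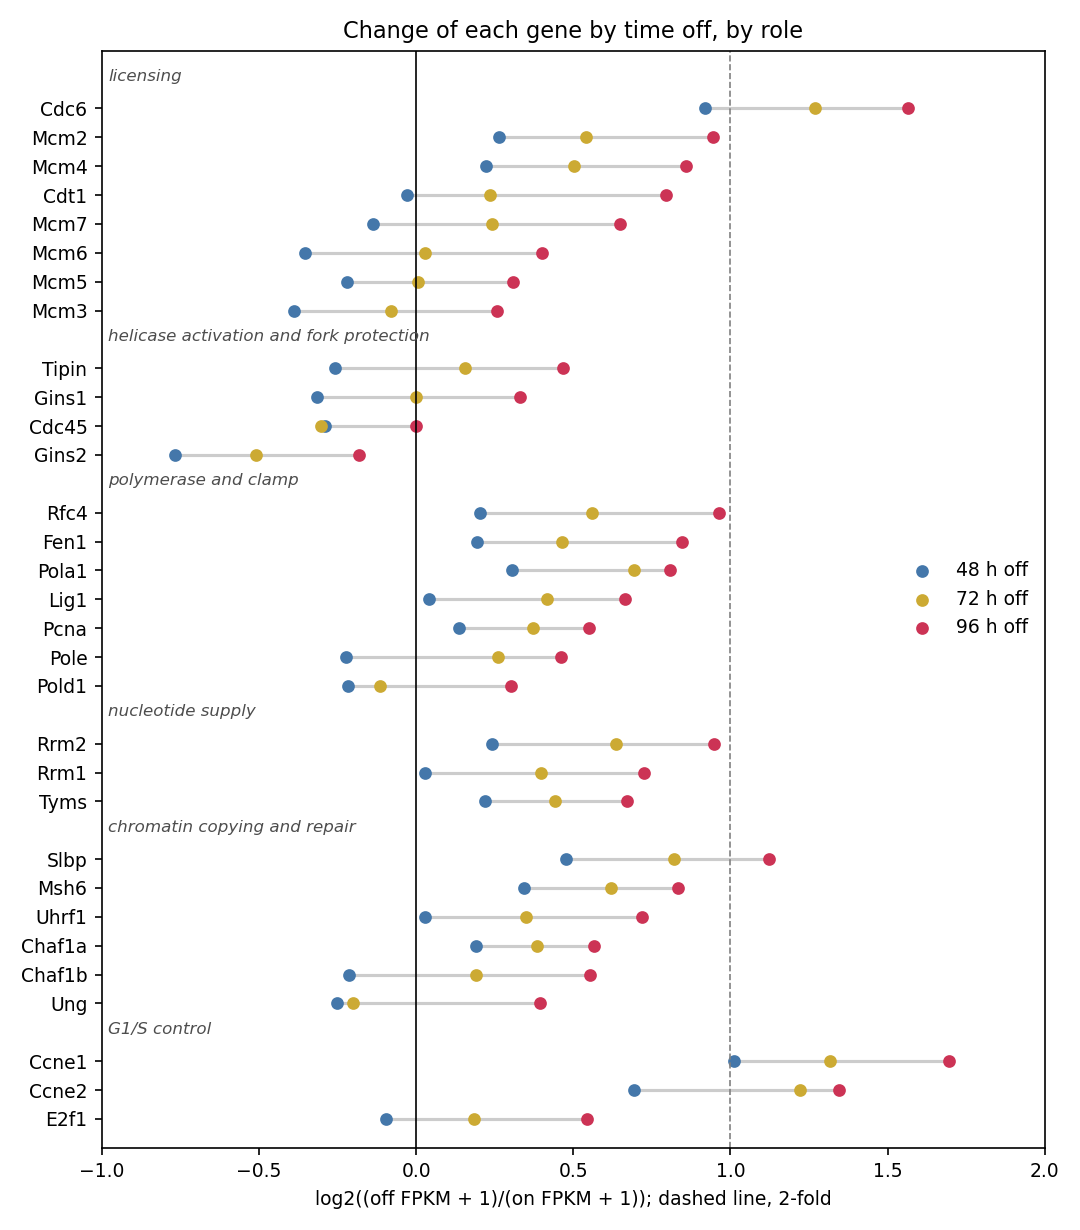
Change of each of the 31 genes against the on library, log2((off FPKM + 1)/(on FPKM + 1)), at 48 h (blue), 72 h (yellow) and 96 h (red) off, by role; the dashed line marks 2-fold. Ccne1, Cdc6, Ccne2 and Slbp pass the dashed line at 96 h, and Gins2 lies left of 0 at each time.

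The polymerase and clamp genes had a median change of 0.14, 0.42 and 0.66. Pcna, the sliding clamp, was the most abundant of the 31 genes per length, at 433, 509.5 and 576 FPKM in the 48 h, 72 h and 96 h off libraries, against 393 FPKM in the on library. Rfc4, a subunit of the clamp loader, stood at 27.6, 35.7 and 47.6 FPKM off, against 23.9 FPKM on, and came nearest to 2-fold without reaching it (0.96 at 96 h). The catalytic subunits of the polymerases differed among themselves. Pola1, which starts each strand with primase, was above the on library throughout, at 14.2, 18.95 and 20.6 FPKM off, against 11.3 FPKM on. Pold1 of the lagging strand polymerase, at 24.0, 25.8 and 34.8 FPKM off against 28.0 FPKM on, lay below it at 48 h. Pole of the leading strand polymerase, at 8.90, 12.8 and 14.9 FPKM off against 10.6 FPKM on, did so too. Fen1 and Lig1, which trim and join Okazaki fragments, stood above the on library at each time. Fen1 was at 79.7, 96.5 and 126 FPKM off, against 69.6 FPKM on (changes of 0.19, 0.47 and 0.85). Lig1 was at 71.25, 92.6 and 110.2 FPKM off, against 69.2 FPKM on (0.04, 0.42 and 0.66).

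All 3 genes of nucleotide supply lay above the on library at each time. Rrm2, the cell cycle regulated subunit of ribonucleotide reductase, stood at 180.5, 237 and 295 FPKM in the 48 h, 72 h and 96 h off libraries, against 152 FPKM in the on library. The large subunit Rrm1 stood at 88.8, 115 and 144 FPKM off, against 87.0 FPKM on. The FPKM ratio of Rrm2 to Rrm1 was 2.03, 2.07 and 2.05 off, against 1.75 on. Thymidylate synthase, Tyms, was at 21.0, 24.7 and 29.1 FPKM off, against 17.9 FPKM on. The group's median was 0.22, 0.44 and 0.72.

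Of the genes for chromatin copying and repair, Slbp was the only one called. Slbp binds the stem-loop of histone mRNA, and it stood at 108, 137 and 169 FPKM in the 48 h, 72 h and 96 h off libraries, against 77.2 FPKM in the on library, with changes of 0.48, 0.82 and 1.12. Msh6, which recognises mismatches, was at 22.25, 27.2 and 31.7 FPKM off, against 17.3 FPKM on (changes of 0.34, 0.62 and 0.83). Chaf1a and Chaf1b encode subunits of the histone chaperone CAF-1. Chaf1a stood at 41.01, 47.1 and 53.5 FPKM off, against 35.8 FPKM on, and Chaf1b at 22.3, 29.9 and 38.8 FPKM off, against 26.1 FPKM on. At 48 h Chaf1a lay above the on library (0.19) and Chaf1b below it (-0.22). Uhrf1, which brings Dnmt1 to copied DNA to keep methylation, was at 64.2, 80.4 and 104 FPKM off, against 62.9 FPKM on (changes of 0.03, 0.35 and 0.72). Ung, which removes uracil from DNA, was at 10.8, 11.2 and 17.4 FPKM off, against 13.01 FPKM on, so it lay above the on library at 96 h only, except that the 72 h change was also just above 0 (0.01) with globin genes left out of the total.

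**Figure D3:**
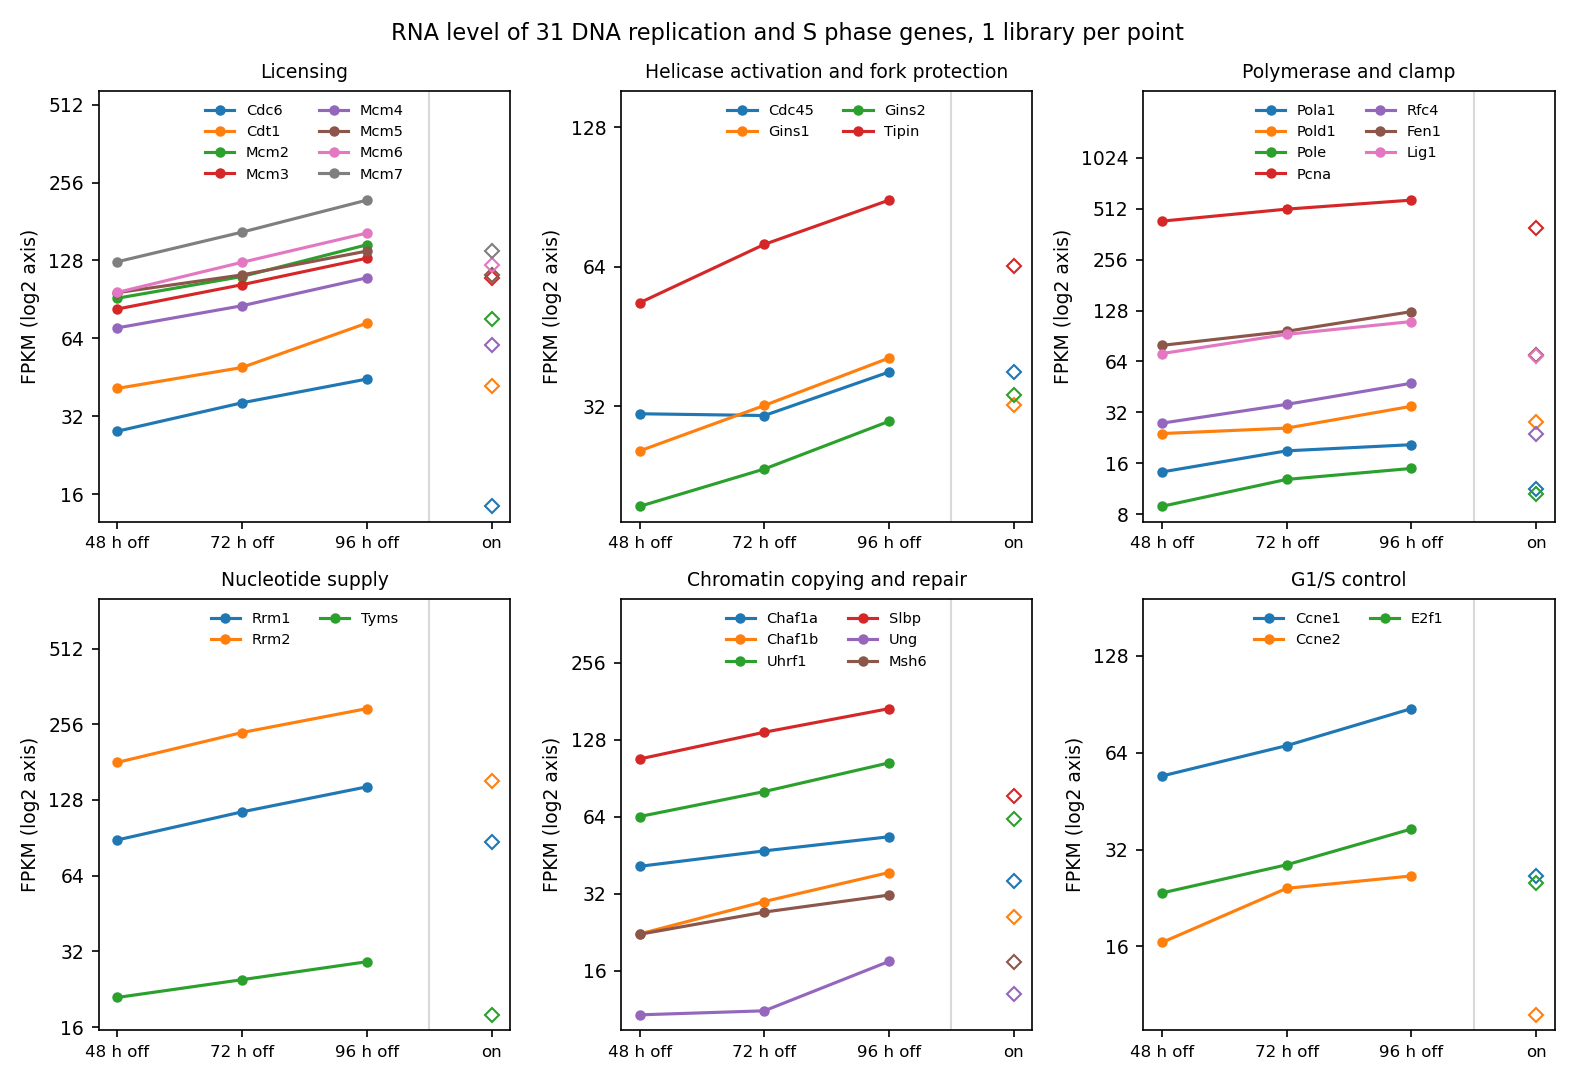
FPKM of each of the 31 genes (log2 axis, scale of the 48 h table) by role group; joined circles are the libraries at 48 h, 72 h and 96 h off and open diamonds the on library, 1 library per point. All 31 lines end higher at 96 h than they start at 48 h, and for 14 genes the 48 h circle lies below the diamond.

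The off libraries followed one order. As deposited, levels were higher at 96 h than at 72 h and higher at 72 h than at 48 h for 30 of the 31 genes, all but Cdc45, where 31.8% of the 11965 genes tested at any time showed that order. The exception depends on the scaling. With the median change of genes with at least 5 FPKM off and on set to 0, Ung also did not step up from 48 h to 72 h (-0.05 and -0.06). Without globin genes in the total, Cdc45 did step up, though barely (-0.081 and -0.080). The 96 h level exceeded the 48 h level for all 31, by 0.65 in the median on the log2 scale and by 0.29 (Cdc45) to 0.82 (Cdt1), against a median of 0.08 and quartiles of -0.16 and 0.28 over all genes. The medians of this step by role were 0.65 for the G1/S controls, 0.66 for licensing, 0.62 for the helicase partners, 0.62 for polymerase and clamp, 0.69 for nucleotide supply and 0.65 for chromatin copying and repair. Counting the on library as the lowest of the 4, 17 of the 31 genes were in rising order of level, where 12.2% of all genes were. These levels come from tables scaled separately and joined through the on library, and with 1 library per time the order of the off libraries has no replicate check.

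A wider list of 84 other replication and S phase genes was read in the same way. Of these, 2, 8 and 11 were called higher and 1, 1 and 1 lower at 48 h, 72 h and 96 h, and the median change was -0.12, 0.18 and 0.42. Over all genes tested, 5.0%, 6.61% and 7.39% were called higher and 4.85%, 5.76% and 8.16% lower, with medians of -0.14, -0.07 and -0.06. With the median change of genes at 5 FPKM or more off and on set to 0, the 48 h median of the wider list was 0.08. Levels stepped up from 48 h to 72 h and 96 h for 71 of the 84, where 31.8% of all genes showed that order. Tfdp2, a partner of E2F factors in DNA binding, had the largest mean change, at 23.1, 44.9 and 39.1 FPKM in the 48 h, 72 h and 96 h off libraries, against 10.8 FPKM in the on library. Orc1, a subunit of the complex that marks origins and recruits Cdc6, stood at 9.69, 14.03 and 17.5 FPKM off, against 4.58 FPKM on. Deoxycytidine kinase, Dck, which salvages nucleosides, was at 41.0, 50.7 and 58.4 FPKM off, against 21.3 FPKM on, and topoisomerase 1, Top1, at 68.9, 83.2 and 74.8 FPKM off, against 32.9 FPKM on. These 4 genes had changes between 0.91 (Dck at 48 h) and 1.95 (Tfdp2 at 72 h). Cdk2, the kinase partner of cyclin E, stood nearer to the on level than the cyclins, at 29.1, 33.3 and 37.9 FPKM off, against 36.5 FPKM on. Cyclin A2, Ccna2, stood at 95.8, 129 and 153 FPKM off, against 89.7 FPKM on.

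Lists of markers for erythroid, leukocyte, granule, lymphoid, endothelial and stromal cells differed in direction between the off libraries and the on library. Leukocyte and granule genes can be expressed by the myeloid leukaemia itself. All 18 erythroid genes were called higher at each time, and their summed level was 3048, 4543 and 4760 FPKM in the 48 h, 72 h and 96 h off libraries, against 950 FPKM in the on library. Klf1, the erythroid transcription factor, stood at 134, 146 and 194 FPKM off, against 25.2 FPKM on, and none of the 18 was at 0 in any library. Of 8 globin genes, listed apart, Hba-a1 stood at 9140 and 12340 FPKM at 48 h and 72 h off and was listed at 0 at 96 h, against 3103 FPKM on. Hba-a2 was likewise listed at 0 at 96 h off, with 529 and 439 FPKM at 48 h and 72 h, against 179 FPKM on. Neither value enters the total without globin genes, which leaves out all 8 globin genes and genes of small or ribosomal RNAs. The 12 genes shared by leukocytes summed to 2919, 2358 and 1786 FPKM off, against 4096 FPKM on, with 0, 3 and 8 of them called lower at 48 h, 72 h and 96 h. Ptprc, which encodes the leukocyte antigen CD45, stood at 101, 94.4 and 64.5 FPKM off, against 69.9 FPKM on. It was the only 1 of the 12 above the on library at 48 h and 72 h, where the other 11 lay below it. At 96 h all 12 lay below the on library. The 6 primary granule genes measured summed to 455, 420 and 376 FPKM off, against 3169 FPKM on, with 5 of 6 called lower at each time and 1, 1 and 0 called higher. Of 8 lymphoid markers, Cd3e, which encodes a chain of the T cell receptor complex, was at most 0.147 FPKM in any library, and the list summed to 23.7, 21.2 and 16.8 FPKM off, against 19.9 FPKM on. Of the 4, 3 and 3 lymphoid markers tested at 48 h, 72 h and 96 h, 2, 2 and 1 were called higher and 1, 1 and 1 lower. The 8 endothelial and stromal markers summed to 421, 450 and 284 FPKM off, against 287 FPKM on, with 2, 1 and 2 called higher and 0 lower at each time. Beside these counts for the marker lists, 5.0%, 6.61% and 7.39% of all genes tested were called higher at 48 h, 72 h and 96 h, and 4.85%, 5.76% and 8.16% lower. The part of erythroid and other cells in the levels of the replication genes was not tested.

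**Figure D4:**
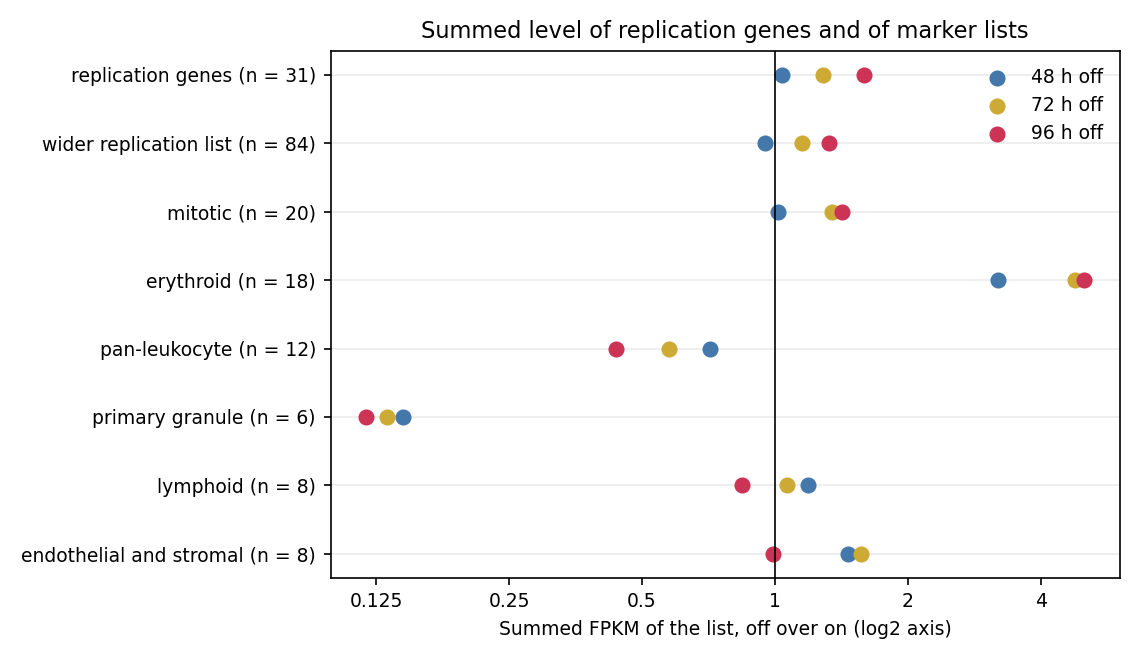
Summed FPKM of the replication genes and of the wider, mitotic and marker lists, divided by the sum in the on library. The off libraries are 48 h (blue), 72 h (yellow) and 96 h (red). The axis is log2, the line marks the on level, and the globin list is not shown. The replication genes stood at 1.04, 1.28 and 1.59 times the on level and the erythroid genes at 3.21, 4.78 and 5.01 times.

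Beside the replication genes, 20 mitotic genes had median changes of -0.11, 0.19 and 0.36 at 48 h, 72 h and 96 h, with 0, 2 and 1 of them called higher and 0 lower at each time, beside 5.0%, 6.61% and 7.39% of all genes called higher. Their summed level was 1.01, 1.35 and 1.42 times that of the on library. Levels stepped up from 48 h to 72 h and 96 h for 16 of the 20, against 30 of the 31 replication genes, and the difference between the lists was not tested.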

How the data were processed

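RNA-seq libraries of 4 samples were read from 4 deposited tables of FPKM. Per the submitters' processing notes, the authors used TopHat2 2.0.4 and Cuffdiff with genome build mm9. The version of Cuffdiff, the gene annotation and whether strand was used are not stated in any source used here. Each table's 0 h column was read as the NRASG12V on library; it was the same in each table up to 1 factor: values agreed within 0.1% for 99.94% (72 h) and 99.96% (96 h) of 15825 genes after factors of 1.053 and 1.056 to the 48 h table. Changes were computed within each table with a pseudocount of 1 FPKM (Python 3.11.15, pandas 2.3.3), which understates the change of low genes. Calls needed 1 FPKM in either library and a 2-fold difference. The calling step was run on simulated data with large set changes and little noise. That checks the code only and cannot show how reliable a call is with 1 library per group. Each group held 1 library and the tables were scaled separately, so no test was run. FPKM give no read counts, so no counting interval is given. Genes in the text are all 31 of the list, 4 genes of the wider list with the largest mean change at 5 FPKM or more, Cdk2 and Ccna2. The genes and lists were chosen with earlier results of these data known. Of 196 list entries, 195 matched a gene by symbol. No protein sequences were used. Promoter windows came from RefSeq, build GRCm38.p6, a different build from that of the tables, and were matched by symbol only.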

Additional observations from a re-analysis of the deposited data

Results flagged for a closer look

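For 13 of the 31 genes the change against the on library had opposite signs at 48 h off (below the on level) and at 96 h off (above it). The 2 changes share the on library, and the difference was not tested. The share of all genes with such a change of sign was not computed, so how unusual this count is cannot be said. Among all genes tested, the median step from 48 h to 96 h was also upward, at 0.08 (quartiles of -0.16 and 0.28). The 96 h change exceeded the 48 h change, on the log2 scale, by 0.82 for Cdt1, 0.79 for Mcm7, 0.77 for Chaf1b, 0.76 for Mcm6, 0.73 for Tipin and 0.68 for Pole. It did so by 0.65 for each of Mcm3, Gins1 and Ung, by 0.64 for E2f1, 0.53 for Mcm5, 0.52 for Pold1 and 0.29 for Cdc45. For Cdc45 the 96 h change was 0.00053, at the on level. For Cdt1, Mcm7 and E2f1 the 48 h change was above 0 with the median change of genes at 5 FPKM or more off and on set to 0 (0.17, 0.07 and 0.11) and with globin genes left out of the total (0.18, 0.08 and 0.11), so for these 3 genes the opposite sign depends on the scaling. The rest of the 13 stayed below 0 at 48 h under both scalings, but some only just. Their changes ran from -0.19 (Mcm3) to -0.01 (Chaf1b) with the median set to 0. Without globin genes they ran from -0.18 (Mcm3) to -0.006 (Mcm5), with Pold1 and Chaf1b both at -0.008.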

How the results depend on the processing

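Alternatives were a pseudocount of 0.1 or 5 FPKM, the median change of genes at 5 FPKM or more off and on set to 0, globin genes left out of the total, no filter or a filter of 5 FPKM, and the authors' combined off value. The total without globin genes also left out genes of small or ribosomal RNAs. As reported, 1 of the 31 genes was higher at 48 h; the count was 0 with a pseudocount of 5 FPKM, 2 with the median set to 0, 2 without globin genes and 3 with the combined value. At 96 h, 4 became 7 with the median set to 0 and 10 without globin genes. Calls over all genes moved as well. Without globin genes, 587 higher and 569 lower at 48 h became 860 and 367. At 96 h, 867 higher and 957 lower became 1170 and 673. For the wider list at 48 h, 2 higher became 0 with a pseudocount of 5 FPKM, 5 with the median set to 0 and 5 without globin genes, and 1 lower became 0 under both scalings. At 72 h, 8 higher became 5 with a pseudocount of 5 FPKM, and at 96 h, 1 lower became 0 with that pseudocount and 0 without globin genes. Counting only the order of the off libraries, an alternative chosen after seeing the data, 30 genes were in rising order against 17 with the on library counted; leaving out 1 off library gave 17 to 25. The other alternatives kept every count within 1.5 times and every median within 1.5-fold. Medians that changed sign were those of licensing at 48 h (0.12 with the median set to 0, 0.13 without globin genes), the wider list at 48 h (0.08 and 0.08) and the helicase partners at 72 h (0.07 without globin genes). Shares of genes on 1 side of the on library at all 3 times were not computed, since the changes share that library. No paired analysis was possible because each group held 1 library. Depth limits are unknown, since FPKM hold no counts.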

Other observations

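The wider list genes called at 96 h off are named here after their values were seen. Besides Tfdp2, Orc1, Dck and Top1, those higher were the helicase Recql4 (13.4 FPKM off against 3.80 FPKM on), the fork protection gene Donson (26.2 against 9.09 FPKM), the polymerase alpha partner Wdhd1 (36.6 against 16.5 FPKM), and Fbxo5 (61.1 against 27.8 FPKM), which inhibits the anaphase-promoting complex. E2f2, E2f4 and Rb1 were called too, while other genes of their families were not. At 96 h the changes of E2f3, E2f5, E2f6, E2f7 and E2f8 were -0.11, -0.15, 0.29, 0.30 and 0.47, and those of Rbl1 and Rbl2 0.17 and -0.40. E2f2 stood at 77.7, 119 and 117 FPKM in the 48 h, 72 h and 96 h off libraries, against 54.7 FPKM in the on library. E2f4 stood at 102, 130 and 163 FPKM off, against 72.7 FPKM on, and Rb1 at 26.8, 43.8 and 42.7 FPKM off, against 15.9 FPKM on. The gene called lower at 96 h was Pold4, a small subunit of polymerase delta, at 24.2, 15.2 and 16.7 FPKM off, against 37.8 FPKM on. At 48 h the gene called lower was 2810417H13Rik, at 37.1, 43.03 and 46.3 FPKM off, against 79.3 FPKM on. The FPKM ratio of Cdt1 to its inhibitor Gmnn (geminin) was 0.666, 0.599 and 0.765 off, against 0.530 on.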
